A study of Mus musculus with 7 samples.

Results

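The Schlafen genes are a family of immune-regulated genes, and the 8 mouse members Slfn1, Slfn2, Slfn3, Slfn4, Slfn5, Slfn8, Slfn9 and Slfn14 were taken by name from 35498 genes with a value in bone marrow. All 8 had enough reads to be tested. Expression was compared between 3 libraries labelled Aim2 knock-out (KO) and 4 libraries labelled wild type (WT), all of bone marrow that was dissected from females at an age of 5 to 6 months. Aim2 encodes a cytosolic DNA sensor that starts an inflammasome, and the title of the series concerns the formation of fat cells in marrow after its loss. The labels name no treatment, strain, or deleted part of Aim2, and they give no animal for any library. The p-values therefore cover the spread between libraries, which may be technical.

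Schlafen proteins share a core domain, and several members cut transfer RNA or ribosomal RNA or bind them. Short members such as Slfn1 and Slfn2 hold little beyond this core, Slfn3 and Slfn4 are of middle size, and Slfn5, Slfn8, Slfn9 and Slfn14 carry a helicase-like part in addition. The family is best known for holding lymphocytes and myeloid cells in a resting state and for its induction by type I interferon. Interferon acts through the interferon-stimulated response element (ISRE), which is bound by a complex that holds Stat2 and Irf9.

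The 8 genes lie together on chromosome 11 (82951349 to 83286726, GENCODE M21 on GRCm38), a stretch of 335378 bases. The order along the chromosome is Slfn5 (82951349 to 82964840, plus strand), Slfn9 (82978390 to 82991830, minus strand), Slfn8 (83002158 to 83020810, minus strand), Slfn2 (83065112 to 83070678, plus strand), Slfn1 (83116849 to 83122670, plus strand), Slfn4 (83175186 to 83190216, plus strand), Slfn3 (83191330 to 83215154, plus strand) and Slfn14 (83275110 to 83286726, minus strand). The pseudogene Slfn10-ps stands between Slfn8 and Slfn2. Slfn5os, an antisense gene that overlaps Slfn5, was not analysed here.

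Promoter windows of 300 bases around each start site were read from RefSeq on GRCm38.p6, and each of the 8 genes had at least 1 window. They were searched on both strands for the ISRE core (GAAA, any 2 bases, GAAA), for a longer form that ends in CT after the core and so contains it, and for the GAS motif of interferon gamma (TTC, any 3 bases, GAA). The 250 bases before the start site are shown for the 3 genes with an ISRE match and for the other 2 genes that rose in KO marrow, 5′ to 3′ on the gene's strand, with the ISRE core in capitals.
Slfn9 (chr11:82991831-82992080, minus strand): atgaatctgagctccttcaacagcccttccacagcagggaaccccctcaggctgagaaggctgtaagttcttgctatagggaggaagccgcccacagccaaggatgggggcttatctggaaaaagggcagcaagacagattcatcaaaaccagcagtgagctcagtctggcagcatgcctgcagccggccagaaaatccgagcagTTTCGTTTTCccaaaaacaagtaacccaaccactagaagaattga
Slfn8 (chr11:83020811-83021060, minus strand): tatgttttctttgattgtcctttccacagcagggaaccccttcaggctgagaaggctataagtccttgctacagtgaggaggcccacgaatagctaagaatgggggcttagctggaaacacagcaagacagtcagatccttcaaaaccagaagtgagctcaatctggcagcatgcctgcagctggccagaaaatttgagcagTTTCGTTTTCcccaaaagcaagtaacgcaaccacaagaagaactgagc
Slfn5 (chr11:82951852-82952101, plus strand): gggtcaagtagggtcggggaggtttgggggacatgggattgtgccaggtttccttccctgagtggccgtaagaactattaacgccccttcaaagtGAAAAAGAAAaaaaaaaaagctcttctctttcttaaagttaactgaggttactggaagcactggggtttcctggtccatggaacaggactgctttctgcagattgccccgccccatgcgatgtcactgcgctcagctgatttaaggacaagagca
Slfn4 (chr11:83174936-83175185, plus strand): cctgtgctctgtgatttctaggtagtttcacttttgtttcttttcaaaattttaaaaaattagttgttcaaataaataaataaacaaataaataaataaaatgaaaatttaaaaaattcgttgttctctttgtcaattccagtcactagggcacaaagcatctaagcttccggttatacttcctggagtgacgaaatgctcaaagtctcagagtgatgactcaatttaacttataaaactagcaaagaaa
Slfn1 (chr11:83116570-83116819, plus strand): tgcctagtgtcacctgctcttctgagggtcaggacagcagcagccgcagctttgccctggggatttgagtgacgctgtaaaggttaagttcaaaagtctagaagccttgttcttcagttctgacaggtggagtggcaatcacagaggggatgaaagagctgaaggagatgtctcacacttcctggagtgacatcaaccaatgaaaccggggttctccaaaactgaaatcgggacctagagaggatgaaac

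The ISRE core was present in the windows of 3 of the 8 members, Slfn5, Slfn8 and Slfn9, against 3.99% of the 27025 genes in the table. In Slfn9 and Slfn8 the match lay 45 and 48 bases before the start site, and it was part of the longer form, which 0.303% of all genes held. The upstream stretches of Slfn8 and Slfn9 were identical at 79.8% of aligned positions, against at most 49.1% for any other pair of members, so both matches lie in a stretch that the pair shares. The match of Slfn5 lay 155 bases before the start site in a stretch rich in A. The GAS motif was in 0 of the 8 and in 9.55% of all genes. These matches describe letters in a window and do not show binding.

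Slfn2 and Slfn4 stood at the top of the family in both genotypes, and Slfn3 and Slfn9 at the bottom. Level was compared between genes in TPM, which is scaled for transcript length. Slfn2, whose mutation in mice leaves T cells and monocytes unable to rest, was the highest, with 98.3, 97.7 and 118.9 TPM in KO libraries 1 to 3 against 63.8, 79.9, 95.3 and 95.4 TPM in WT libraries 1 to 4. Slfn4, a gene of myeloid cells induced by interferon, was second in each group, with 87.5, 65.5 and 84.8 TPM in KO and 41.3, 32.7, 37.5 and 35.7 TPM in WT. The lowest in KO was Slfn3, with 3.91, 4.10 and 3.28 TPM, against 2.59, 2.81, 3.23 and 2.71 TPM in WT. The lowest in WT was Slfn9, with 4.38, 4.03 and 4.34 TPM in KO and 1.69, 2.43, 2.17 and 2.44 TPM in WT.

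**Figure D1:**
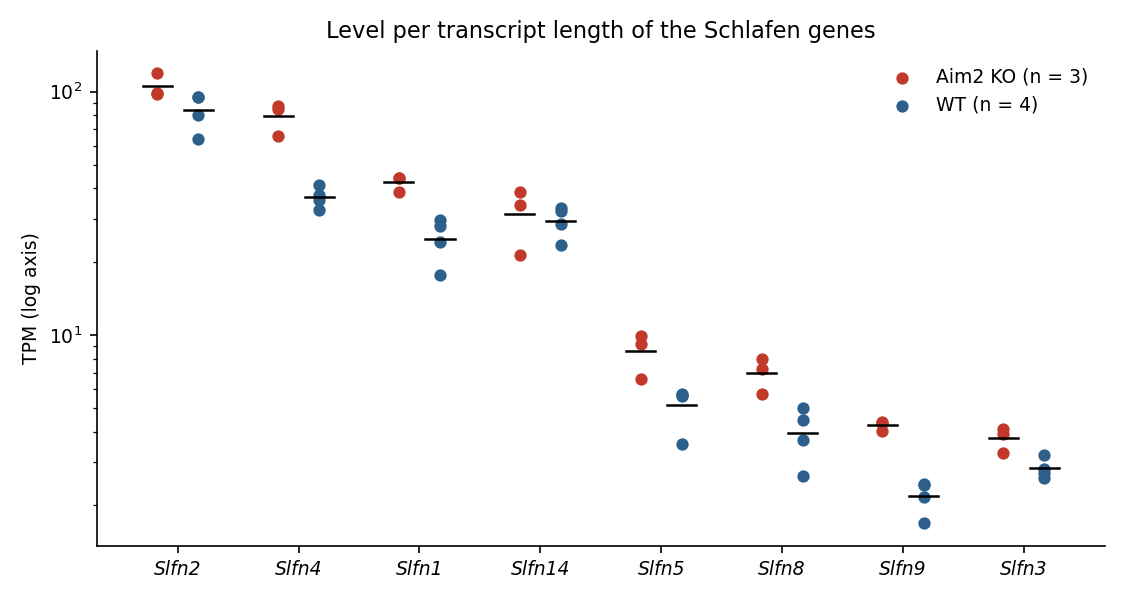
TPM on a log axis of each Schlafen gene in every library, with KO (red, n = 3) left of WT (blue, n = 4) and a black line at the group mean, ordered by the KO mean. Slfn2 stands highest in both groups, and Slfn4, Slfn1 and Slfn14 stand well above Slfn5, Slfn8, Slfn9 and Slfn3.

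In KO the order of mean levels was Slfn2, Slfn4, Slfn1, Slfn14, Slfn5, Slfn8, Slfn9 and Slfn3, and in WT it was Slfn2, Slfn4, Slfn14, Slfn1, Slfn5, Slfn8, Slfn3 and Slfn9. In KO the neighbours Slfn1 and Slfn14, Slfn5 and Slfn8, and Slfn9 and Slfn3 overlapped between libraries. In WT the overlapping neighbours were Slfn4 and Slfn14, Slfn14 and Slfn1, Slfn5 and Slfn8, and Slfn8 and Slfn3. Summed over the 8 members, the level was 282 ± 21.8 TPM (SD, n = 3) in KO and 189 ± 24.3 TPM (SD, n = 4) in WT. Slfn4 made up 29.8, 25.5 and 28.8% of that sum in the KO libraries, against 26.4, 17.8, 18.3 and 17.1% in the WT libraries. WT library 1 thus stood with the KO libraries in this share, though not in the level of Slfn4.

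Related members share stretches of sequence, which bears on these levels. Words of 31 bases were counted in the quantified transcripts of each gene, and Slfn5 and Slfn14 shared 0% of theirs with the other members, with Slfn10-ps or with Gm11427, a pseudogene between Slfn3 and Slfn14. Slfn1 shared 1.96%, Slfn2 9.36%, Slfn4 19.5%, Slfn9 19.8%, Slfn3 21.9% and Slfn8 26.7%. Slfn3 and Slfn4 shared the most with each other, Slfn8 with Slfn9, and Slfn9 with Slfn10-ps. Reads from shared stretches are divided between genes by an estimate whose error was not measured, so the split of counts between these genes is uncertain.

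In KO against WT marrow, 3 of the 8 members rose (Slfn9, Slfn4 and Slfn1), 0 fell and 5 did not pass, at an adjusted p under 0.05 in the quasi-likelihood test of edgeR. Among all 14238 tested genes 0.646% changed in either direction and 0.478% were higher. Levels in CPM, which are counts per library scaled by depth and by TMM factors, did not overlap between the groups for 5 members, all higher in KO, against 6.95% of all tested genes that were higher without overlap. The log2 fold change was above 0 for 7 members and 47.3% of all tested genes, and its median was 0.62 over the members and -0.01 over all tested genes. DESeq2 called 5 members higher (Slfn1, Slfn4, Slfn5, Slfn8 and Slfn9), where 1.82% of all tested genes were higher. With an offset for transcript length 1 member was higher (Slfn9, against 0.309% of genes). On log2 TPM 1 was higher (Slfn4, against 0.302% of genes with a pseudocount of 0.1, 0.316% with 1 and 0.0981% without a filter). Without KO library 1, 2 or 3 the edgeR count was 1 member each time, against 0.229, 0.146 and 0.327% of all tested genes. Without WT library 1 or 4 it was 2 members (0.318 and 0.311% of genes), and without WT library 2 or 3 it was 1 member (0.113 and 0.155% of genes). In bulk marrow, a change in the number of cells of a type and a change in RNA per cell cannot be told apart.

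Slfn9 (ENSMUSG00000069793.12), a long member whose human relatives SLFN11 and SLFN13 cut transfer RNA, showed the smallest p of the family. Its estimated counts were 481, 465 and 501 in KO libraries 1 to 3 and 235, 281, 249 and 290 in WT libraries 1 to 4. Scaled to depth, these were 22.6, 22.3 and 22.7 CPM in KO and 12.6, 13.6, 12.1 and 13.9 CPM in WT. The KO libraries lay close together, and the lowest of them was 1.61 times the highest WT library. KO libraries averaged 22.5 CPM (SD 0.17, n = 3) and WT libraries 13.04 CPM (SD 0.85, n = 4), and the log2 fold change was 0.79 ± 0.08 (SE; edgeR adjusted p = 0.00877). Of the 8 members it alone passed edgeR's test each time 1 of the 7 libraries was left out (adjusted p = 0.0227 to 0.0422). It did not pass on log2 TPM (adjusted p = 0.0618 to 0.169), where its log2 fold change was 0.73 to 0.94.

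Slfn4 (ENSMUSG00000000204.16) had the largest fold change of the members. It was at 251, 206 and 240 CPM in KO libraries 1 to 3, against 153, 99.6, 111 and 114 CPM in the WT libraries. All KO libraries were higher than all WT libraries, and WT library 1 was the highest of its group. KO libraries averaged 233 CPM (SD 23.4, n = 3) and WT libraries 119 CPM (SD 23.2, n = 4), a 1.95-fold level whose log2 value was 0.97 ± 0.15 (SE; edgeR adjusted p = 0.0358). With 1 library left out the fold change stayed between 0.89 and 1.11 on the log2 scale. The call was kept without WT library 1 (adjusted p = 0.0159) and lost without each of the other 6 libraries, with adjusted p from 0.0692 without KO library 3 to 0.126 without WT library 3.

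Slfn1 (ENSMUSG00000078763.2), which slows the growth of thymocytes when forced on in mice, passed narrowly. It was at 69.3, 66.1 and 70.7 CPM in KO libraries 1 to 3, against 38.0, 41.1, 46.5 and 51.9 CPM in the WT libraries. The KO libraries were close together, and the WT libraries were more spread but all lower. KO libraries averaged 68.7 CPM (SD 2.35, n = 3) and WT libraries 44.4 CPM (SD 6.14, n = 4), with a log2 fold change of 0.63 ± 0.11 (SE; edgeR adjusted p = 0.049). The call was kept without WT library 4 (edgeR adjusted p = 0.0347) and lost without each of the other 6, with adjusted p from 0.0739 without WT library 1 to 0.176 without WT library 2. RLE scaling put the edgeR adjusted p at 0.0568. Pooling the counts of Slfn1 and Slfn2 put the log2 fold change at 0.32 ± 0.10 (SE) and the edgeR adjusted p at 0.29. Slfn2 held more of this pool, at 134 CPM in WT against 44.4 CPM for Slfn1, and Slfn1 shared only 1.96% of its 31-base words. The pool therefore does not decide the call of Slfn1.

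Slfn5 and Slfn8 had fold changes close to that of Slfn1 but did not pass. Slfn5 (ENSMUSG00000054404.13), an interferon-inducible nuclear protein, was at 49.0, 39.5 and 53.1 CPM in KO libraries 1 to 3, against 27.3, 29.7, 32.6 and 34.9 CPM in the WT libraries. Its groups did not overlap, with KO library 2 the nearest to WT, and its log2 fold change was 0.60 ± 0.12 (SE; edgeR adjusted p = 0.0858). Slfn8 (ENSMUSG00000035208.16), a long member close in sequence to Slfn9, was at 21.6, 20.04 and 25.2 CPM in KO, against 11.4, 13.1, 16.9 and 15.98 CPM in WT. Its groups did not overlap either, with WT libraries 3 and 4 above WT libraries 1 and 2, and its log2 fold change was 0.64 ± 0.15 (SE; edgeR adjusted p = 0.135). DESeq2 called both genes higher (adjusted p = 0.00106 for Slfn5 and 0.00838 for Slfn8). When the counts of Slfn8, Slfn9 and Slfn10-ps were pooled to 1 feature, the pool passed, with a log2 fold change of 0.71 ± 0.09 (SE; edgeR adjusted p = 0.0206). Slfn9, at 13.04 CPM in WT against 14.3 CPM for Slfn8, passed alone. The pool therefore does not decide the call of Slfn8.

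**Figure D2:**
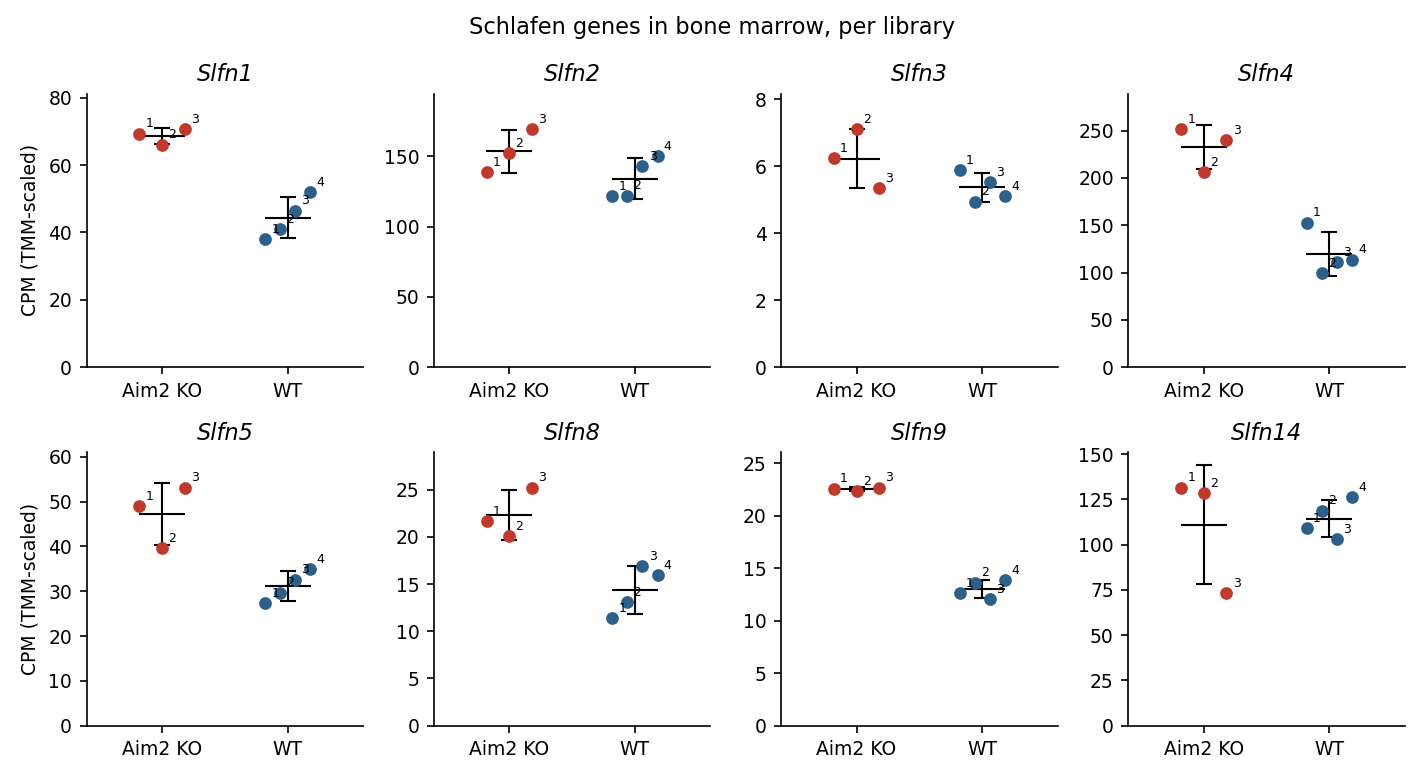
CPM of the 8 Schlafen genes, with each numbered point a library, the bar the mean and the whiskers the SD, and KO (red, n = 3) left of WT (blue, n = 4). The groups are apart for Slfn1, Slfn4, Slfn5, Slfn8 and Slfn9 and overlap for Slfn2, Slfn3 and Slfn14, where KO library 3 lies lowest for Slfn14.

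In CPM, Slfn2, Slfn3 and Slfn14 overlapped between the groups. In the TPM given above, Slfn2 and Slfn3 were higher in every KO library than in every WT library, and the median of all genes was shifted up on that scale. Slfn2 (ENSMUSG00000072620.3) was at 139, 153 and 169 CPM in KO, against 122, 122, 143 and 150 CPM in WT, and its log2 fold change was 0.19 ± 0.11 (SE; edgeR adjusted p = 0.539). In CPM, KO library 1 lay within the WT range. The log2 fold change of Slfn2 was 0.11 without KO library 3 and 0.34 on log2(TPM + 0.1), and it passed in neither (adjusted p = 0.7 in edgeR and 0.505 in limma). Slfn3 (ENSMUSG00000018986.10), which is tied to differentiation of T cells and gut epithelium in rodents, was at 6.24, 7.11 and 5.34 CPM in KO, against 5.90, 4.94, 5.53 and 5.12 CPM in WT, and its log2 fold change was 0.21 ± 0.14 (SE; edgeR adjusted p = 0.623). Its 102 to 148 reads per library were the fewest of the family. The log2 fold change of Slfn3 was 0.11 without KO library 2 and 0.39 on log2(TPM + 0.1), and it passed in neither (adjusted p = 0.879 in edgeR and 0.459 in limma). A p over the threshold does not show that Slfn2 or Slfn3 was equal in the genotypes.

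The annotated transcripts of Slfn3 did not run in parallel. The protein-coding transcript Slfn3-201 was at 2.499, 2.40 and 2.03 TPM in KO libraries 1 to 3, against 1.13, 1.29, 1.87 and 0.599 TPM in the WT libraries, with no overlap. The protein-coding transcript Slfn3-202 was at 1.29, 1.62 and 1.16 TPM in KO and 1.33, 1.44, 1.19 and 1.93 TPM in WT, which overlapped. Slfn3-201 thus made up 58.6 to 63.9% of the gene's TPM in KO and 22.1 to 57.9% in WT. These 2 transcripts differ little in length (1816 and 1966 bases), the split between them is an estimate from few reads, and the difference was not tested.

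For Slfn4 the 3 annotated transcripts were each higher in KO by the mean, and these differences were not tested. Slfn4-201, of 8 exons, was at 36.3, 31.4 and 32.4 TPM in KO libraries 1 to 3, against 16.8, 15.9, 15.2 and 17.3 TPM in the WT libraries. Slfn4-202, of 7 exons, was at 26.7, 16.9 and 23.97 TPM in KO and 7.17, 6.14, 10.2 and 7.25 TPM in WT. Both were apart between the groups in TPM, a scale on which the median of all genes was shifted up in KO. Slfn4-203, of 3 exons, was at 24.5, 17.2 and 28.5 TPM in KO and 17.3, 10.7, 12.1 and 11.2 TPM in WT, where WT library 1 stood just above KO library 2. Slfn1, Slfn2 and Slfn14 each had 1 quantified transcript. Slfn5-201 held 94.8 to 99.2% of its gene's TPM in KO and 87.99 to 98.7% in WT, lowest in WT library 2. Slfn9-201 held 94.5 to 96.1% in KO and 93.3 to 100% in WT. Slfn8 was divided over several transcripts, of which Slfn8-201 held 41.0 to 61.3% in KO and 46.8 to 63.2% in WT, and Slfn8-206 held 30.2 to 45.0% in KO and 18.7 to 47.9% in WT.

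**Figure D3:**
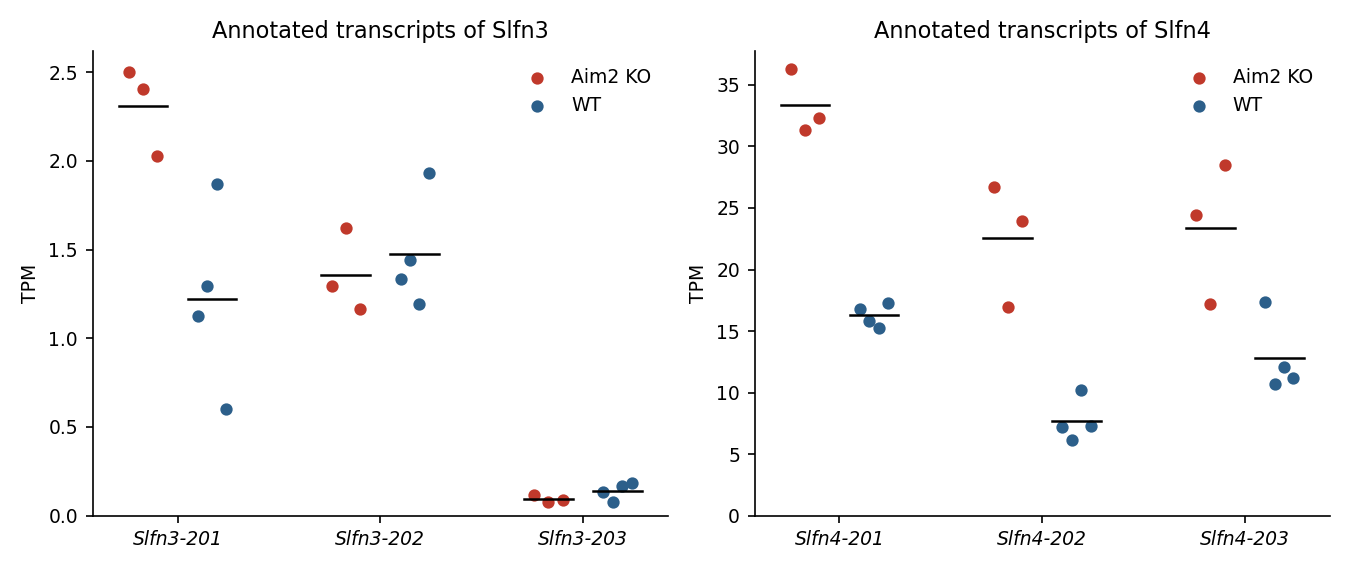
TPM of the annotated transcripts of Slfn3 (left) and Slfn4 (right), with each point a library, the line the group mean, and KO (red) left of WT (blue). Slfn3-201, Slfn4-201 and Slfn4-202 are apart between the groups, while the other transcripts overlap.

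Slfn14 (ENSMUSG00000082101.3), an endoribonuclease first isolated from rabbit reticulocytes whose human mutations cause a bleeding disorder with low platelet counts, was the only member with a log2 fold change below 0. It was at 131, 128 and 73.2 CPM in KO libraries 1 to 3, against 109, 119, 103 and 126 CPM in the WT libraries. KO libraries 1 and 2 were the highest of all 7 and KO library 3 was the lowest. The log2 fold change was -0.04 ± 0.19 (SE; edgeR adjusted p = 0.965), and it was 0.18 without KO library 3 (adjusted p = 0.446), 0.01 without WT library 4, 0.09 with voom weights and 0.06 on TPM. The 12 erythroid markers were also lowest in KO library 3, where they summed to 6287.0 CPM, against 10632.4 to 12004.3 CPM in the other KO libraries and 9095.1 to 11726.1 CPM in WT. The 14 megakaryocyte and platelet markers were highest in that library, at 4608.1 CPM, against 3317.8 to 3720.1 CPM in the other KO libraries and 3108.0 to 4082.9 CPM in WT. Haemoglobin genes, which are not among the erythroid markers, took 12.78, 13.67 and 11.35% of the reads in KO libraries 1 to 3. In WT libraries 1 to 4 they took 19.93, 15.37, 13.8 and 15.59%. Of the erythroid and the megakaryocyte list 0 of 12 and 0 of 14 members passed in edgeR, with 2 of each at an unadjusted p under 0.05. Among all tested genes these shares were 0.646% and 11.5%. DESeq2 called 0 of either list, and voom called 1 and 0. The part of cell makeup in the values of Slfn14 was not tested.

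**Figure D4:**
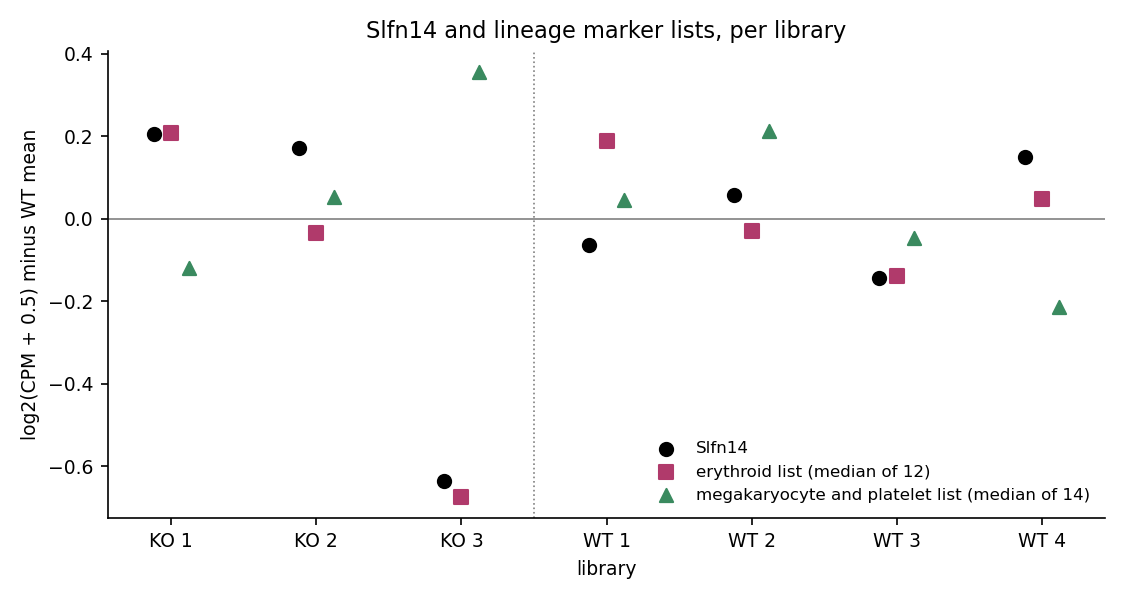
Log2(CPM + 0.5) minus the WT mean, per library, for Slfn14 (circles) and for the medians of the erythroid (squares) and megakaryocyte and platelet (triangles) marker lists, with KO libraries left of WT. In KO library 3 Slfn14 and the erythroid median lie at -0.64 and -0.67 while the megakaryocyte and platelet median lies at 0.36.

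Relatives outside the 8 were few. Slfn10-ps was at 0.892, 1.11 and 0.679 CPM in KO, against 0.429, 0.630, 0.727 and 0.144 CPM in WT, which overlapped, and its log2 fold change was 0.88 ± 0.46 (SE; edgeR adjusted p = 0.52). Slfnl1, a distant relative on chromosome 4, had 1 read in KO library 1 and 0 in the other 6 libraries, which allows up to 3 reads in each of them, and was not tested. Gm11427 (83224454 to 83260960, plus strand), a transcribed pseudogene within the cluster chosen after its values were seen, was at 121.8 to 138.7 TPM in KO and 120.0 to 138.2 TPM in WT, higher than any Schlafen member by the mean. It shared 19.0% of its 31-base words with members or Slfn10-ps, 12.2% with Slfn3 alone. Its log2 fold change was -0.14 ± 0.09 (SE; edgeR adjusted p = 0.646).

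No gene flanking the cluster passed the test. Of 19 tested genes that start within 500 kb outside the outermost members, 0 passed in edgeR, and their log2 fold changes lay between -0.12 and 0.25 with a median of 0.02. None had an unadjusted p under 0.05, and DESeq2 and voom called 0 of them. Of all tested genes 11.5% had an unadjusted p under 0.05, and 0.646% passed in edgeR. The nearest on the Slfn5 side were Nle1, a ribosome assembly factor, with a log2 fold change of -0.04, and Unc45b, a myosin chaperone of muscle, with 0.25 ± 0.48 (SE). On the Slfn14 side Ap2b1, an adaptor of endocytosis, had a log2 fold change of 0.06.

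Interferon-stimulated genes were set beside the family as the pathway it is known to answer to. Of 37 tested genes of that list, 19 rose, 0 fell and 18 did not pass, where 0.478% of all tested genes were higher. Their median log2 fold change was 0.75, against 0.62 for the Schlafen members and -0.01 for all tested genes. The 4 with the smallest p were Oas1a, Dhx58, Oas2 and Xaf1, with log2 fold changes of 1.80, 0.98, 2.09 and 1.11. Oas1a and Oas2 make the messenger that switches on RNase L, Dhx58 is a receptor of viral RNA, and Xaf1 promotes cell death. The count was 11 without KO library 1 (0.229% of all tested genes), 7 without KO library 2 (0.146%), 7 without WT library 2 (0.113%) and 10 without WT library 3 (0.155%).

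Of 15 genes of interferon receptors and signalling, 5 rose, 0 fell and 10 did not pass, against the same 0.478% of all tested genes, with a median log2 fold change of 0.25. The 4 with the smallest p were Usp18, which damps receptor signalling, Stat2 and Irf9, which bind the ISRE, and Irf7, which drives interferon genes. Usp18 was at 27.6, 27.3 and 29.1 CPM in KO libraries 1 to 3, against 11.5, 10.5, 10.1 and 13.5 CPM in the WT libraries (log2 fold change 1.30 ± 0.11, SE; edgeR adjusted p = 0.00561). Stat2, Irf7 and Irf9 had log2 fold changes of 0.45, 1.21 and 0.64, and all of their KO libraries were higher than all of their WT libraries. The count was 1 without KO library 1 or 2 or WT library 2 or 3, and 3 without KO library 3 or WT library 1 or 4, where 0.113 to 0.327% of all tested genes were higher.

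**Figure D5:**
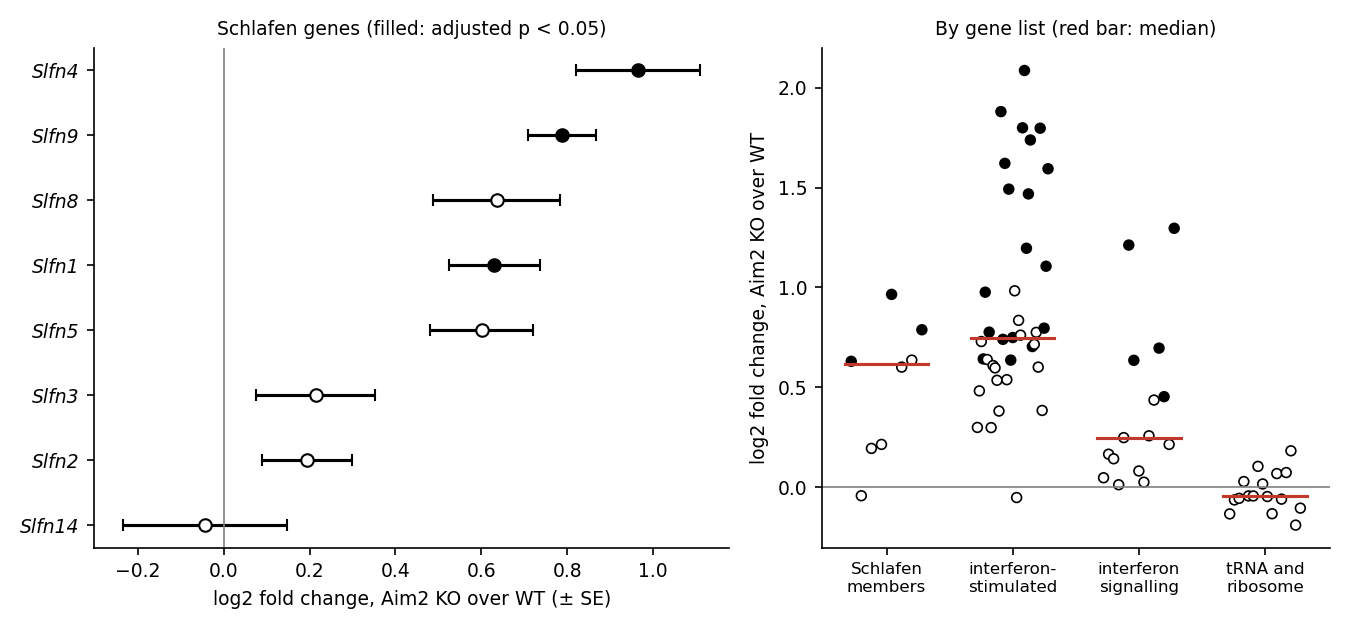
Left, log2 fold change of KO over WT with SE for each Schlafen gene, filled where the adjusted p is under 0.05. Right, the same quantity for each gene of 4 lists, with a red bar at the median, which is 0.62 for the Schlafen members, 0.75 for interferon-stimulated genes, 0.25 for interferon signalling and -0.05 for genes acting on tRNA or ribosomes.

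Genes that act on transfer RNA or on stalled ribosomes, where several Schlafen proteins work, did not pass. Among all tested genes 0.646% passed in edgeR and 11.5% had an unadjusted p under 0.05. Of 16 tested genes of this list 0 passed in edgeR, 1 had an unadjusted p under 0.05, and DESeq2 and voom called 0. These counts do not set the list apart, and its median log2 fold change was -0.05. The 4 with the smallest p were Trmt1, a tRNA methyltransferase, Rnh1, an inhibitor of ribonucleases, Zfp598, a sensor of collided ribosomes, and Hbs1l, a ribosome rescue factor. Their log2 fold changes were -0.19, 0.18, -0.11 and -0.13, with adjusted p from 0.418 to 0.664.

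Of 13202 genes with at least 1 CPM on average, those nearest in pattern to the 3 risen members were found by the root mean square difference of log2(CPM + 0.5) minus the WT mean over the 7 libraries. Those near Slfn1 included Ddx58 (0.053), a receptor of viral RNA, and Parp14 (0.065). For Slfn4 they were Xaf1 (0.11), Col14a1 (0.14) and Mx1 (0.17), and for Slfn9 they were Rnf213, Gm4070 and Gm12250 (0.11, 0.11 and 0.12). Ddx58, Parp14, Xaf1 and Mx1 stand on the list of interferon-stimulated genes. That list held 37 of the 14238 tested genes. Since the 3 members rose, the search favours genes that are also higher in KO. Col14a1, a collagen, Rnf213, a ubiquitin ligase, Gm4070 and Gm12250 stand on neither that list nor that of signalling genes. The lists hold only some of the genes that answer to interferon, so absence from them does not place a gene outside that response. Ddx58 was at 41.4, 38.4 and 38.3 CPM in KO, against 22.03, 23.9, 24.96 and 30.01 CPM in WT. Ddx58 was picked for its likeness to Slfn1 over these same 7 libraries. That both were lowest in WT library 1 and highest in WT library 4 among the WT libraries follows from this choice. Mx1 and Gm12250 did not pass (edgeR adjusted p = 0.0546 and 0.0673).

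Markers of myeloid cells and lymphocytes, in which Schlafen genes are known to act, were set beside the members. Of all tested genes 0.478% were higher and 0.169% lower in edgeR, and 11.5% had an unadjusted p under 0.05. DESeq2 called 1.82% higher and 1.03% lower, and voom called 1.29% higher and 0.857% lower. At such shares an edgeR count of 0 does not set a short list apart. The 15 monocyte and macrophage markers summed to 1651.6 to 1816.0 CPM in KO and 992.3 to 1425.1 CPM in WT, and the 16 neutrophil markers to 25221.0 to 27386.9 CPM in KO and 19217.2 to 24929.5 CPM in WT. Of these, 0 of 15 and 0 of 16 passed in edgeR, with 8 and 4 at an unadjusted p under 0.05. DESeq2 called 5 and 1 of them higher, and voom 3 and 1. The 18 T cell markers summed to 153.8 to 187.5 CPM in KO and 217.2 to 241.8 CPM in WT, and the 15 B lineage markers to 212.4 to 329.4 CPM in KO and 431.0 to 693.1 CPM in WT. Of these, 0 of 18 and 0 of 15 passed in edgeR, with 11 and 12 at an unadjusted p under 0.05. DESeq2 called 5 and 8 of them lower, and voom 4 and 6. The 8 plasma cell markers summed to 710.0 to 883.5 CPM in KO and 444.5 to 678.5 CPM in WT, with 0 of 8 past edgeR's test, 6 at an unadjusted p under 0.05, 2 called higher by DESeq2 and 0 by voom. The 10 NK cell markers summed to 81.9 to 92.3 CPM in KO and 65.8 to 84.3 CPM in WT, with 0 of 10 past edgeR's test, 3 at an unadjusted p under 0.05 and 0 called by DESeq2 or voom. The dendritic cell markers summed to 166.3 to 218.4 CPM in KO and 169.2 to 186.6 CPM in WT. Of 10 tested, 6 had a log2 fold change above 0 and 4 below 0, with a median of 0.06. In edgeR 1 of them fell, Cd209a, a lectin of dendritic cells named after its values were seen. Its log2 fold change was -1.35 ± 0.17 (SE; edgeR adjusted p = 0.0206). No marker of these 7 lists was at 0 in all libraries. The part of these cell types in the values of the Schlafen members was not tested.

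Facts of the whole series bear on these results as follows. The libraries held 20300468 to 21099972 estimated reads. The estimated counts of Aim2 were 157, 47 and 59 in KO and 601, 573, 535 and 533 in WT, and KO library 1 held the most of its group. Without KO library 1 the log2 fold changes of Slfn9, Slfn4 and Slfn1 were 0.79, 0.91 and 0.62 (edgeR adjusted p = 0.0305, 0.097 and 0.121). Skeletal muscle markers summed to 68.7 to 6995.0 CPM in KO and 1155.6 to 2443.1 CPM in WT, highest in KO library 3. In all, 92 of 14238 genes changed, 68 higher and 24 lower (0.169%) in KO.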

How the data were processed

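RNA of mouse bone marrow was sequenced in 7 libraries, 3 with the label Aim2 KO and 4 with WT, from strand-specific mRNA preparations on DNBSEQ, per the labels' protocols. The submitters' processing notes name Salmon 1.7.0, FastQC 0.11.9, DESeq2 and the build GRCm38.p6. Which annotation release and Salmon options were used is not given in these sources. The authors deposited unnormalized estimated counts per transcript. They also deposited TPM per transcript, a unit scaled by effective length.

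GENCODE M21 on GRCm38 gave transcripts their genes, 35498 in all. Transcripts without one there, 569 in number, took up to 0.0662% of a library and were left out. Gene sums of the estimated counts were rounded to whole numbers. Depth was 20300468 to 21099972 reads per library. Of all genes 14238 passed filterByExpr. KO was compared with WT by the quasi-likelihood F-test of edgeR 4.0.16 in R 4.3.3, with TMM scaling, no covariate, and Benjamini-Hochberg adjustment over the genes that passed. The SE is the size of the log2 fold change over the root of F. The steps were also tested on simulated data.

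The members and gene lists were chosen with earlier results of these data known. The text names the members, Slfn10-ps, Slfnl1, Aim2, the 4 genes with the smallest p of each interferon or ribonuclease list, the nearest neighbours and the genes most alike in pattern. Gm11427 and Cd209a were named after their values were seen. Some genes that this rule covers are not reported here. Alternatives were RLE scaling, TMM without abundant gene classes, DESeq2 1.42.0, limma 3.58.1 (voom, and log2 TPM with pseudocounts of 0.1 and 1), other filters, a length offset, sample number as a block, pooled paralogues and leaving out each library.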

Additional observations from a re-analysis of the deposited data

Results flagged for a closer look

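Of 64 groups of 4 WT libraries examined, 3 held a library whose gap to its nearest neighbour, as a share of the group's range, passed Dixon's critical value at the 95% level, and chance gives about 1 in 20. Each time it was WT library 1. Slfn5 was at 3.58 TPM there and at 5.64 to 5.72 TPM in the other WT libraries, a gap of 0.963 of the range. Mx1 was at 5.25 CPM there and at 4.17 to 4.31 CPM in the others (0.872), and Hbs1l at 93.1 CPM against 75.6 to 78.5 CPM (0.832). Without WT library 1 the log2 fold change of Slfn5 was 0.55 (edgeR adjusted p = 0.171).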

How the results depend on the processing

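DESeq2 and voom changed 405 and 305 genes, the length offset 55, log2(TPM + 0.1) 49, log2(TPM + 1) 50, log2(TPM + 0.1) without a filter 28, and leaving out a library 17 to 65, against 92. Of all tested genes 1.82% were higher with DESeq2, 1.29% with voom and 0.309% with the offset, against 0.478%. The shares were 0.302, 0.316 and 0.0981% on TPM, and 0.113 to 0.327% with a library left out. With a filter of 1 CPM 58 of 13330 tested genes were higher. The counts that follow are to be read beside these shares. The count of Schlafen members higher in KO was 5 with DESeq2, 1 with the offset and with each TPM setting, and 1 to 2 with a library left out, against 3. The count of members lower was 0 in every setting. The interferon-stimulated count was 30 with DESeq2, 29 with voom, 10 on TPM without a filter and 7 to 19 with a library left out, and its median log2 fold change was 0.904 on log2(TPM + 0.1), 0.901 without the filter and 0.681 to 0.802 with a library left out. The signalling count was 3 with a filter of 1 CPM, 1 with the offset, 2 with each TPM setting and 1 to 3 with a library left out, and its median was 0.195 with voom, 0.39 on log2(TPM + 0.1) with or without the filter, 0.303 on log2(TPM + 1) and 0.171 to 0.273 with a library left out. TPM settings moved the median of all genes up by 0.139, 0.114 and 0.116, and of the changed genes 64.0% were higher with DESeq2, 60.0% with voom and 87.8 and 90.0% on TPM with the filter, against 73.9%.

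Slfn1 kept its direction but missed the threshold with RLE scaling (0.631), TMM without haemoglobin, immunoglobulin and mitochondrial genes (0.629), the 1 CPM filter (0.631) and the offset (0.635). It also missed the threshold on TPM (0.792, 0.769 and 0.792) and when pooled with the more abundant Slfn2 (0.316). With a library left out it ranged from 0.565 to 0.715. Slfn4 missed it with the offset (0.934) and ranged from 0.893 to 1.109. Slfn9 missed it on TPM (0.944, 0.729 and 0.944) and ranged from 0.753 to 0.82. Slfn5 and Slfn8 passed with DESeq2 (0.602 and 0.637). In edgeR the pool of Slfn8, Slfn9 and Slfn10-ps passed (0.714), but Slfn9 passed alone, so this pool does not decide the call of Slfn8. The pool of Slfn3 and Slfn4 also passed (0.94). In it Slfn3 held 5.37 CPM in WT and Slfn4 119 CPM, so that pool does not bear on Slfn3. Slfn14 turned to above 0 with voom (0.094), on TPM (0.062, 0.061 and 0.062) and without some libraries (-0.182 to 0.178). The cause was not tested.

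The labels name no pairing of KO with WT libraries, and the sample numbers gave no sign of it. Residuals of same-numbered libraries correlated at -0.267 to 0.106 over 3 pairs, and those of differently numbered libraries at -0.213 to 0.255. Of the KO libraries 0 correlated best with its own number. So few libraries cannot show that pairing was absent. With the sample number as a block 21 genes changed, 95.2% of them higher, with 0 Schlafen, 7 interferon-stimulated and 2 signalling genes, and Slfn1 (0.719, adjusted p = 0.0666), Slfn4 (0.963, 0.065) and Slfn9 (0.821, 0.0666) kept their direction in this edgeR fit. Of all tested genes 0.14% were then higher.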
